A study of Rattus norvegicus with 16 samples.

Results

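Cxcl1 (ENSRNOG00000002802), Cxcl2 (ENSRNOG00000002792), Cxcl10 (ENSRNOG00000022256) and Cxcl11 (ENSRNOG00000022298) are genes of the CXC chemokine family, small secreted proteins that direct the migration of leukocytes. They were selected by identifier as 4 of the 30560 genes listed, and all 4 had enough counts to be among the 11902 genes tested. The rule did not use their measured values, but earlier results of these data were known when the genes and tests were chosen. The symbols came with that selection: the name table used here lists an Ensembl identifier for 0 of its 47357 rat genes, so the pairing of symbol and identifier was not checked, and for the same reason marker genes of microglia and of other brain cells were not examined and the labelled cell type was not checked. The cells were wild-type primary rat microglia kept in culture to day 12 and sequenced in bulk as 16 libraries. Control cells received neither agent, and ApoA-I cells received apolipoprotein A-I protein at 100 ug/ml in the medium. LPS cells received bacterial lipopolysaccharide at 100 ng/ml for 20 hours, and LPS+ApoA-I cells received both agents at these doses. The same 20 hours are listed for all groups, each with 4 libraries. The labels do not say whether the 4 libraries of a group came from separate cultures or animals, and the p-values therefore reflect the spread among these libraries alone, which may be technical.

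Cxcl1 and Cxcl2 carry a glutamate-leucine-arginine motif before their first cysteines, bind the receptor Cxcr2 and attract neutrophils. In macrophages and microglia their genes are known targets of NF-kB, which Toll-like receptor 4 activates when it senses lipopolysaccharide. Cxcl10 and Cxcl11 lack that motif, bind Cxcr3 and attract activated T cells and natural killer cells. Their genes respond to interferons and also to NF-kB. ApoA-I is the chief protein component of high-density lipoprotein and takes up cholesterol from cells through the transporter Abca1.

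In the RefSeq annotation of the rat assembly GRCr8, found by symbol, Cxcl1 and Cxcl2 are direct neighbours on chromosome 14 with 0 listed genes between them, and so are Cxcl10 and Cxcl11, while 32 listed genes separate the 2 pairs. The 250 bases before each annotated start are shown as a description, and their bearing on the LPS response was not tested. Capitals mark matches, on either strand, to the NF-kB consensus, to GAAANNGAA (the core of the interferon-stimulated response element), to TGANTCA (an AP-1 motif) and to TATAAA. The windows are chr14:17479322-17479571 and chr14:17467256-17467505 on the minus strand, and chr14:15988816-15989065 and chr14:15973478-15973727 on the plus strand.
Cxcl1: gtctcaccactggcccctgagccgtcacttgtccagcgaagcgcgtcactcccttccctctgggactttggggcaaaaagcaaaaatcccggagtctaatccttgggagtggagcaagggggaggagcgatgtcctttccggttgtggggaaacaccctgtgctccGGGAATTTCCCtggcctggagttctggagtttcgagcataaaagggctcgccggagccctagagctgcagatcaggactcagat
Cxcl2: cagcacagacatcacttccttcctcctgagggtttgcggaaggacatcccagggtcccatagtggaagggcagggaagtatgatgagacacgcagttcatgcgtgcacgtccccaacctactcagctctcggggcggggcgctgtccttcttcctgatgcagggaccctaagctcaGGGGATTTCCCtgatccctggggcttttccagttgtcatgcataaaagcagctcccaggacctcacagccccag
Cxcl10: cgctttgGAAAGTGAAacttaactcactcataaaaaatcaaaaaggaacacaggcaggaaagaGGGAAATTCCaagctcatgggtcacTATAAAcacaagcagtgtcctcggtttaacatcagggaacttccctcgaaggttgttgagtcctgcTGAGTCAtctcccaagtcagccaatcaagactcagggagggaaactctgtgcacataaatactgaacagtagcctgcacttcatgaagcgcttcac
Cxcl11: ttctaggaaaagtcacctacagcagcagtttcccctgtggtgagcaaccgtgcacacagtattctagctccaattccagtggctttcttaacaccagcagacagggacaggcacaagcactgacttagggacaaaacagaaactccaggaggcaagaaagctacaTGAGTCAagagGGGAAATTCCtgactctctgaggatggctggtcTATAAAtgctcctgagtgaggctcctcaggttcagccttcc
All 4 windows held a match to the NF-kB consensus, which 3.54% of the 33469 rat promoter windows of this length hold. Counting back from the annotated start, with the base before it as -1, the match lay between -84 and -74 in Cxcl1 and between -74 and -64 in Cxcl2, each as overlapping matches, between -187 and -178 in Cxcl10 and between -74 and -65 in Cxcl11. GAAANNGAA, in 8.12% of windows, was found in Cxcl10 between -243 and -235. TGANTCA, in 6.34% of windows, was found in Cxcl10 between -96 and -90 and in Cxcl11 between -85 and -79. TATAAA, in 12.9% of windows, lay between -41 and -36 in Cxcl11 and between -162 and -157 in Cxcl10. A match describes the sequence and does not show that a factor binds there, and a motif without a match means only that these letters are not in this window.

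Library totals ranged from 12304916 to 17262383 estimated counts. Levels of 1 gene are given as CPM, counts scaled to a common library size with TMM factors, and levels of different genes are compared only in TPM, which is also per transcript length. TMM factors ran from 0.812 to 0.953 in libraries with LPS and from 1.05 to 1.18 in libraries without it. Without TMM, the median change of all tested genes in LPS against Control was -0.42 in place of -0.04 log2 units, so each change below is relative to that scaling. In bulk RNA, a change in the number of expressing cells and a change in RNA per cell cannot be told apart. For Cxcl2, Cxcl10 and Cxcl11, Control 4 was the highest Control library and ApoA-I 4 the lowest ApoA-I library. Of the 297 genes called higher in ApoA-I than in Control, 138 (46.5%) shared this order of Control 4 and ApoA-I 4, against 8.63% of all tested genes. The opposite order held for 7.70% of all tested genes. Results that rest on these libraries are given with and without them. The 2 libraries were singled out after the data were seen, so an adjusted p without both is not a valid test.

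LPS against Control asked how the 4 transcripts respond to LPS. All 4 rose, where 36.3% of all tested genes were called higher. By mean TPM, Cxcl1 and Cxcl2 went from ranks 5804 and 2650 to ranks 14 and 16 of all listed genes. The rise of the Cxcr3 ligands was much smaller. The median change of the 4 genes was 5.41 log2 units, against -0.04 over all tested genes.

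Cxcl1 had 7.52, 8.23, 5.34 and 7.90 CPM in Control libraries 1 to 4, and 4367, 4265, 4521 and 4272 CPM in LPS libraries 1 to 4. The LPS libraries lay within a narrow band, and none overlapped the Control libraries. The change was 603-fold (log2 fold change 9.24, SE 0.15, edgeR adjusted p = 2.11e-22), rank 29 from the top of 11902 genes. Cxcl1 went from rank 5804 to rank 14 of the 30560 listed genes by mean TPM.

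Cxcl2 started higher, at 19.9, 25.8, 19.7 and 27.4 CPM in Control libraries, and reached 4382, 4347, 4494 and 4171 CPM in LPS libraries. It rose 188-fold (log2 fold change 7.55, SE 0.14, edgeR adjusted p = 1.09e-21), with no overlap of the groups. By mean TPM it moved from rank 2650 to rank 16. The share of a library's counts taken by Cxcl1 and Cxcl2 together went from 0.00336% ± 0.000626 without either agent to 0.735% ± 0.0296 with LPS (SD, n = 4 each).

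Cxcl10 was already well expressed without LPS, with 142, 91.6, 72.3 and 189.8 CPM in Control libraries 1 to 4. LPS libraries had 346, 309, 315 and 267 CPM. The groups did not overlap, but the Control libraries spread over a wider range than those with LPS. The rise was 2.50-fold (log2 fold change 1.32, SE 0.26, edgeR adjusted p = 0.000103), and 1.60 log2 units without Control 4 and ApoA-I 4. It placed Cxcl10 at rank 940 of the tested genes by fold change.

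Cxcl11 was rare in Control libraries, with 22, 23, 22 and 49 counts, or 1.39, 1.53, 1.21 and 3.07 CPM. LPS libraries had 223, 185, 227 and 174 counts, or 21.0, 17.5, 16.8 and 14.5 CPM, all above the Control libraries. It rose 9.68-fold (log2 fold change 3.28, SE 0.25, edgeR adjusted p = 9.14e-11). Cxcl11 therefore rose more than its neighbour Cxcl10 but stayed far less abundant, at 24.99 ± 3.25 TPM against 429 ± 30.9 TPM for Cxcl10 in LPS libraries (SD, n = 4 each).

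**Figure D1:**
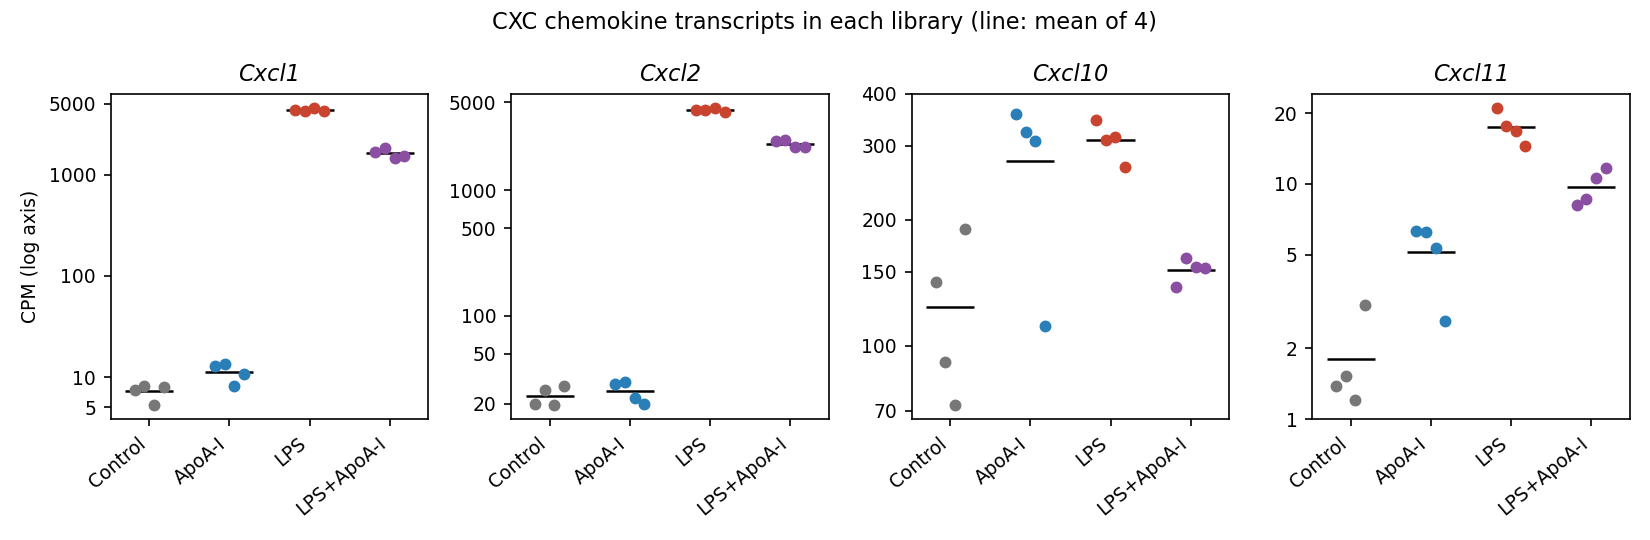
Level of each chemokine transcript in each library, in CPM on a log axis that differs between panels; points are libraries 1 to 4 of a group from left to right and lines are group means. Cxcl1 and Cxcl2 lie at 4171 CPM or more in LPS libraries and at 2497 or less in all others, whereas Cxcl10 in 3 of the 4 ApoA-I libraries lies as high as in LPS libraries.

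Cxcl10 was above Cxcl1 and Cxcl2 in Control and below both with LPS, whereas Cxcl11 was below both in either group. In Control libraries Cxcl10 had 232 ± 97.2 TPM, against 16.5 ± 3.42 for Cxcl1, 48.0 ± 8.99 for Cxcl2 and 3.47 ± 1.62 for Cxcl11 (SD, n = 4 each). In LPS libraries Cxcl1 had 7343 ± 234 and Cxcl2 6682 ± 102 TPM, against 429 ± 30.9 for Cxcl10 and 24.99 ± 3.25 for Cxcl11 (SD, n = 4 each). The ratio of 2 transcripts within a library does not depend on how libraries are scaled, and it was compared for the 6 pairs of genes in 4 comparisons, 24 tests in all. With two-sided exact permutation tests of 4 against 4 libraries, 0.0286 is the smallest p possible, and the smallest adjusted p was 0.0429. That adjusted p depends on how many of the 24 pooled tests reach 0.0286. Every ratio did so in LPS against Control and in LPS+ApoA-I against ApoA-I. Ratios in the other comparisons pass only when pooled with these. The log2 ratio of Cxcl10 to Cxcl1 counts was 4.01 ± 0.494 without LPS (Control) and -3.82 ± 0.141 with it (SD, n = 4 each; exact permutation p = 0.0286, adjusted 0.0429). The ratio of Cxcl2 to Cxcl1 changed too, by -1.68 log2 units (exact permutation p = 0.0286, adjusted 0.0429). The ratio of Cxcl11 to Cxcl10 rose by 1.93 log2 units (exact permutation p = 0.0286, adjusted 0.0429). All 6 ratios separated LPS from Control libraries without overlap. They come from the same 4 genes, so they are not independent, and the share of other gene pairs that separate in this way was not examined.

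**Figure D2:**
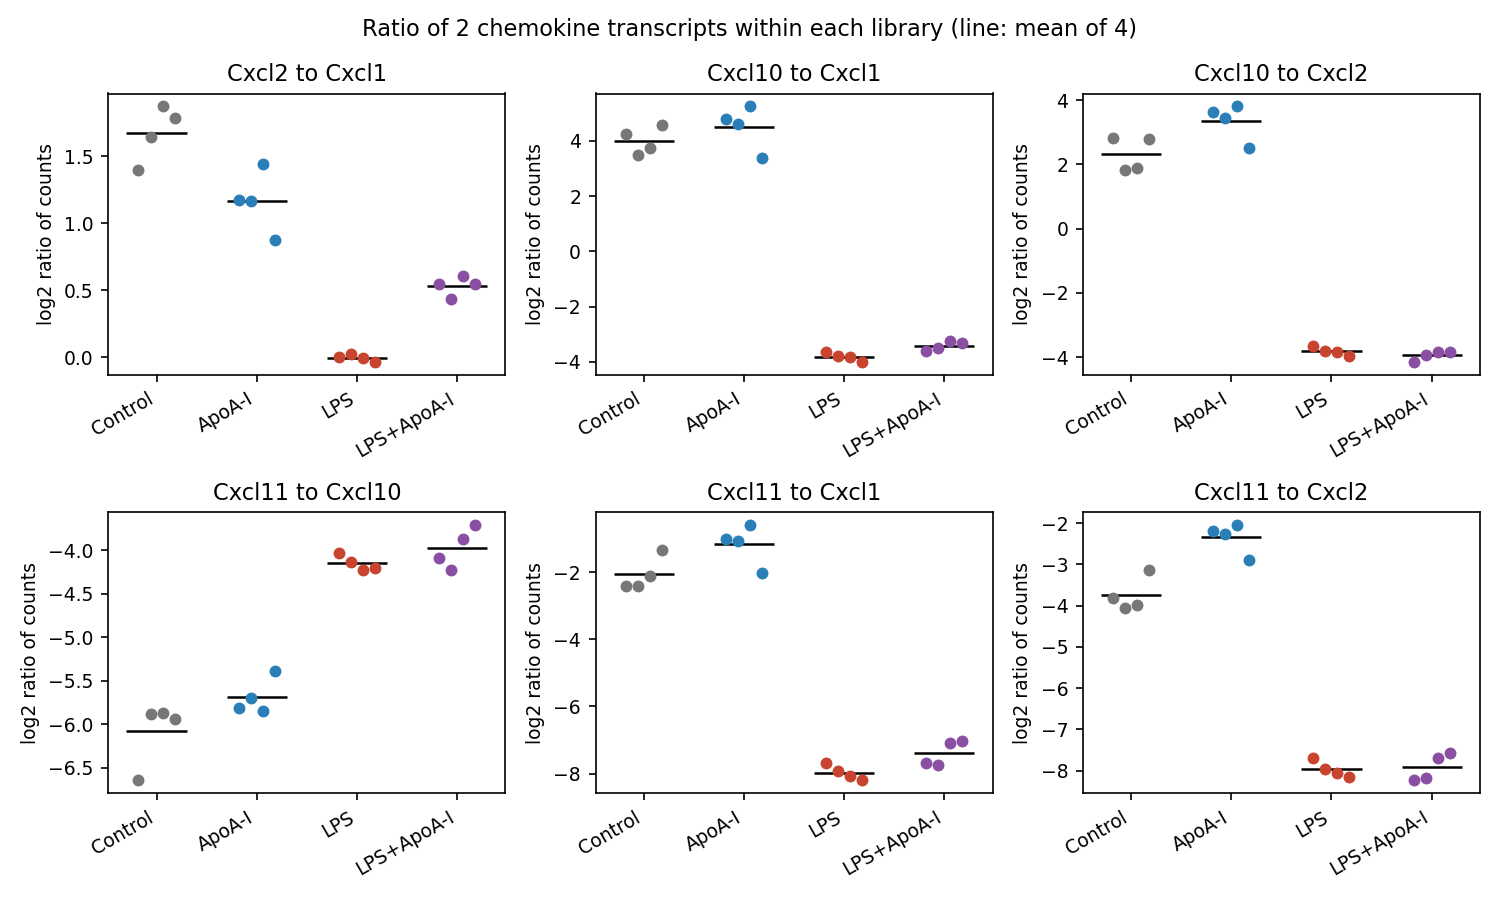
Log2 ratio of the counts of 2 chemokine transcripts within each library, after adding 0.5 to each count; points are libraries and lines are means of 4. The ratios of Cxcl10 to Cxcl1 and to Cxcl2 are above 0 in every library without LPS and below 0 in every library with LPS, while Cxcl2 to Cxcl1 takes a different level in LPS and LPS+ApoA-I libraries.

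The next comparison, LPS+ApoA-I against LPS, set cells given both agents against cells given LPS alone. All 4 transcripts fell, where 24.9% of all tested genes were called lower. The median change of the 4 genes was -0.96 log2 units, against 0.03 over all tested genes and -0.62 over the 1332 genes whose LPS response exceeded 1 log2 unit. Within those 1332 genes, ordered from the largest decrease, Cxcl1 stood at place 244, Cxcl10 at 389, Cxcl2 at 466 and Cxcl11 at 499, so other genes with larger decreases preceded each of them. This comparison and the one before share the LPS libraries.

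Cxcl1 had 1685, 1845, 1450.3 and 1514 CPM in LPS+ApoA-I libraries 1 to 4, against at least 4265 CPM in every LPS library. It was 2.68-fold lower (log2 fold change -1.42, SE 0.10, edgeR adjusted p = 1.30e-10). Cxcl2 had 2459, 2497, 2204 and 2216 CPM and was 1.86-fold lower (log2 fold change -0.89, SE 0.10, edgeR adjusted p = 2.00e-07). Neither gene's groups overlapped. Both stayed abundant with ApoA-I, at 2994 ± 282 TPM for Cxcl1 and 3946 ± 213 TPM for Cxcl2 (SD, n = 4 each), so by TPM Cxcl1 was below Cxcl2 in each of the 4 LPS+ApoA-I libraries and above it in each of the 4 LPS libraries.

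Cxcl10 had 138, 162, 155 and 153 CPM in LPS+ApoA-I libraries, all below the lowest LPS library at 267 CPM. It was 2.03-fold lower (log2 fold change -1.02, SE 0.26, edgeR adjusted p = 0.00222). Cxcl11 had 98, 133, 144 and 169 counts, or 8.11, 8.60, 10.6 and 11.7 CPM, against 14.5 CPM or more in LPS libraries. It was 1.79-fold lower (log2 fold change -0.84, SE 0.21, edgeR adjusted p = 0.00204).

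The decreases did not divide along the 2 pairs. The log2 ratio of Cxcl2 to Cxcl1 went from -0.00 ± 0.0258 in LPS to 0.53 ± 0.0701 in LPS+ApoA-I libraries (SD, n = 4 each; exact permutation p = 0.0286, adjusted 0.0429), since Cxcl1 fell more than its neighbour. The log2 ratio of Cxcl10 to Cxcl1 rose by 0.41 (exact permutation p = 0.0286, adjusted 0.0429). Both calls pass only when pooled with the tests of LPS against Control and of LPS+ApoA-I against ApoA-I. Cxcl10 to Cxcl2 changed by -0.13, which did not pass the test (exact permutation p = 0.200, adjusted 0.229), and the SDs of that ratio were 0.144 and 0.123. Cxcl11 to Cxcl2 changed by 0.05 (exact permutation p = 0.857, adjusted 0.857), Cxcl11 to Cxcl10 by 0.18 (exact permutation p = 0.229, adjusted 0.249) and Cxcl11 to Cxcl1 by 0.59 (exact permutation p = 0.0571, adjusted 0.0722). A p above the threshold does not show that these ratios stayed the same.

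Without LPS, the comparison was ApoA-I against Control. Cxcl1, Cxcl10 and Cxcl11 were called higher, where 2.50% of all tested genes were, and the median change of the 4 genes was 0.89 log2 units against -0.00 over all tested genes. Here the larger changes belonged to the Cxcr3 ligands: Cxcl11 stood at rank 36 and Cxcl10 at rank 64 of 11902 genes by fold change, Cxcl1 at rank 237 and Cxcl2 at rank 2723. For each of the 4 genes the ApoA-I and Control libraries overlapped.

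Cxcl10 had 358, 324, 308 and 111 CPM in ApoA-I libraries 1 to 4. The first 3 were above every Control library, and ApoA-I 4 was below Control 1 and Control 4, at 142 and 189.8 CPM. The change was 2.22-fold (log2 fold change 1.15, SE 0.26, edgeR adjusted p = 0.0139). Leaving out Control 2 (adjusted p = 0.0519), Control 3 (adjusted p = 0.0563) or ApoA-I 1 (adjusted p = 0.0634) ended the call, and over the libraries of these 2 groups alone the adjusted p was 0.0986. Without Control 4 and ApoA-I 4, its highest Control and lowest ApoA-I library, the change was 1.70 log2 units. Dropping these extremes had to widen the difference, so no p is given.

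Cxcl11 had 96, 88, 82 and 38 counts, or 6.31, 6.23, 5.34 and 2.62 CPM. As for Cxcl10, libraries 1 to 3 were above every Control library and ApoA-I 4 was below Control 4, at 3.07 CPM. It was 2.86-fold higher (log2 fold change 1.51, SE 0.28, edgeR adjusted p = 0.00326). Each single library could be left out without losing the call, and over the 2 groups alone the adjusted p was 0.0513. Without Control 4 and ApoA-I 4, again its highest Control and lowest ApoA-I library, the change was 2.12 log2 units.

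Cxcl1 had 12.8, 13.3, 8.07 and 10.8 CPM with ApoA-I, and only ApoA-I 3 lay within the Control range, which ended at 8.23 CPM. It was 1.55-fold higher (log2 fold change 0.64, SE 0.14, edgeR adjusted p = 0.0118). Leaving out Control 3 (adjusted p = 0.0548) or ApoA-I 1 (adjusted p = 0.0552) ended the call, and over the 2 groups alone the adjusted p was 0.0991. Cxcl2 had 28.8, 29.96, 22.003 and 19.7 CPM, a range that held 3 of the 4 Control libraries, and its log2 fold change of 0.12 (SE 0.12) did not pass the test (edgeR adjusted p = 0.659). Without Control 4 and ApoA-I 4, also its highest Control and lowest ApoA-I library, its change was 0.31 and was still not called.

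Of the 6 ratios, Cxcl11 to Cxcl2 rose by 1.40 log2 units with ApoA-I (exact permutation p = 0.0286, adjusted 0.0429) and Cxcl11 to Cxcl10 by 0.40 (exact permutation p = 0.0286, adjusted 0.0429). The latter rests on Control 1, whose log2 ratio of Cxcl11 to Cxcl10 was -6.64 against -5.93 to -5.87 in the other Control libraries and -5.84 to -5.39 with ApoA-I: without Control 1 the difference was 0.21. As a ratio of TPM, Cxcl11 to Cxcl10 did not pass (exact permutation, adjusted p = 0.0722). Cxcl10 to Cxcl2 rose by 1.01 without passing (exact permutation p = 0.0857, adjusted 0.103), and by 1.45 without Control 4 and ApoA-I 4. Cxcl10 to Cxcl1 differed by 0.50 (exact permutation p = 0.343, adjusted 0.358) and by 1.07 without those 2 libraries. Cxcl11 to Cxcl1 differed by 0.89 (exact permutation p = 0.0571, adjusted 0.0722), and Cxcl2 to Cxcl1 by -0.51 (exact permutation p = 0.0571, adjusted 0.0722). With 3 libraries left in each group no exact test can pass, so the values without those libraries carry no test. Here too, the ratios that passed did so only when pooled with the tests of LPS against Control and of LPS+ApoA-I against ApoA-I.

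**Figure D3:**
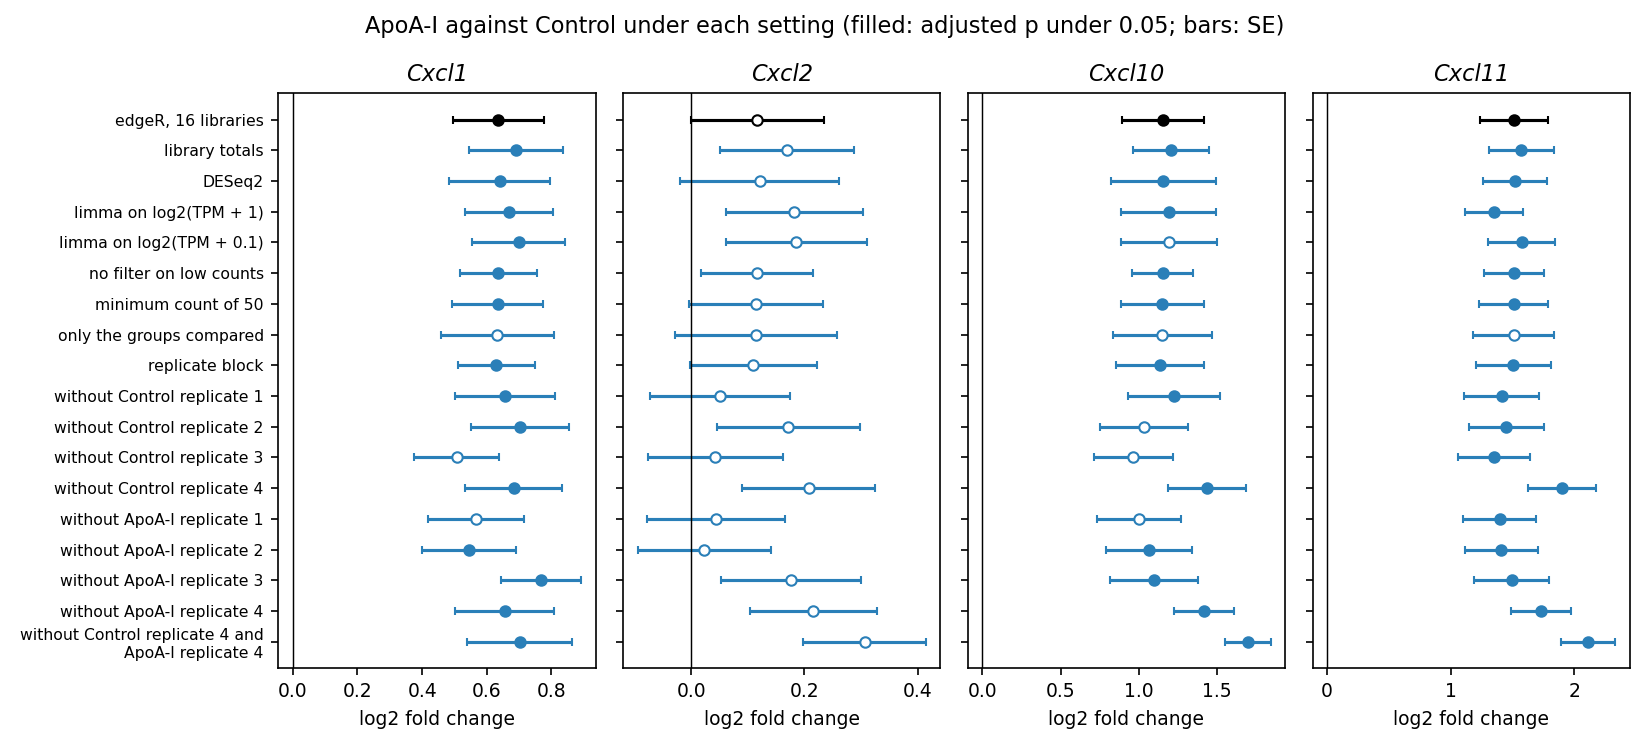
Log2 fold change of each chemokine in ApoA-I against Control by setting, with SE bars, on an axis that differs between panels. Filled points have an adjusted p under 0.05. Settings that left out an LPS or LPS+ApoA-I library are not drawn, and the setting without Control 4 and ApoA-I 4 was added after the data were seen. The fill of that setting's points is therefore not a valid test. Cxcl10 and Cxcl11 give their highest values without Control 4 and ApoA-I 4, at 1.70 and 2.12, and Cxcl2 is not called under any setting.

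The interaction, the ApoA-I effect with LPS minus that in its absence, was negative for all 4 genes, where 20.2% of all tested genes had a negative call. The value was -2.35 log2 units for Cxcl11 (SE 0.35, edgeR adjusted p = 1.23e-05), -2.18 for Cxcl10 (SE 0.37, edgeR adjusted p = 5.95e-05), -2.06 for Cxcl1 (SE 0.17, edgeR adjusted p = 3.71e-09) and -1.01 for Cxcl2 (SE 0.16, edgeR adjusted p = 2.06e-05). For Cxcl1, Cxcl10 and Cxcl11 it joined a rise without LPS to a fall with it. For Cxcl2 only the fall was called. The median over the 4 genes was -2.12 log2 units, against 0.04 over all tested genes. Without Control 4 and ApoA-I 4 the values were -2.95 for Cxcl11, -2.72 for Cxcl10, -2.13 for Cxcl1 and -1.20 for Cxcl2.

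Comparing LPS+ApoA-I with ApoA-I libraries measured the change with LPS where both groups had ApoA-I, from libraries that LPS against Control did not use. Cxcl1, Cxcl2 and Cxcl11 were higher, where 34.5% of all tested genes were called higher, and Cxcl10 was lower, where 34.8% were called lower. Cxcl1 rose 145-fold (log2 fold change 7.18, SE 0.14, edgeR adjusted p = 1.03e-20) and Cxcl2 93.3-fold (log2 fold change 6.54, SE 0.13, edgeR adjusted p = 1.80e-20), at ranks 17 and 27 of all tested genes. Cxcl11 rose 1.90-fold (log2 fold change 0.92, SE 0.23, edgeR adjusted p = 0.00113), without overlap in CPM, from at most 6.31 to at least 8.11. In TPM the groups overlapped, with 13.5 in ApoA-I 1 and 12.74 in LPS+ApoA-I 1. This rise of Cxcl11 was smaller without TMM scaling, at 0.57 on log2(TPM + 1) and 0.62 on log2(TPM + 0.1), where it was not called (limma adjusted p = 0.0526). Cxcl10 fell by 0.86 on the log2 scale (SE 0.26, edgeR adjusted p = 0.00572). The 4 LPS+ApoA-I libraries, at 138 to 162 CPM, lay below ApoA-I libraries 1 to 3 and above ApoA-I 4. Without ApoA-I 4 the change was -1.12, and without ApoA-I 1 it was -0.71 (edgeR adjusted p = 0.0252).

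As a share of the log2 change in LPS against Control, the change in LPS+ApoA-I against ApoA-I was 0.866 for Cxcl2 and 0.777 for Cxcl1, both above the median of 0.640 over the 1332 genes that LPS raised by more than 1 log2 unit. It was 0.282 for Cxcl11, below the lower quartile of 0.416, and -0.649 for Cxcl10, whose direction turned. For Cxcl10 the size depended on scaling, with -1.22 from library totals and -1.11 on log2(TPM + 1). These shares are a description and carry no test of their own. A given log2 loss is a smaller share of a larger response, and the 1332 genes were chosen by the same LPS change. The shares therefore do not show that Cxcl1 and Cxcl2 were kept better than other genes. In folds, the LPS response without and with ApoA-I was 603 and 145 for Cxcl1, and 188 and 93.3 for Cxcl2. The interaction of Cxcl1, at -2.06, stood at rank 206 from the lowest of 11902 genes.

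LPS+ApoA-I against Control gave what was left of the LPS response with ApoA-I. Cxcl1, Cxcl2 and Cxcl11 were called higher, where 34.4% of all tested genes were. Cxcl1 was 225-fold higher (log2 fold change 7.81, SE 0.14, edgeR adjusted p = 5.27e-21), Cxcl2 101-fold (log2 fold change 6.66, SE 0.13, edgeR adjusted p = 1.26e-20) and Cxcl11 5.42-fold (log2 fold change 2.44, SE 0.26, edgeR adjusted p = 2.69e-08). Cxcl10 had 152 ± 9.85 CPM against 124 ± 52.9 in Control (SD, n = 4 each), and its log2 fold change of 0.30 (SE 0.26) did not pass the test (edgeR adjusted p = 0.319). Without Control 4, its highest Control library, the change was 0.58 (edgeR adjusted p = 0.0444). Leaving out that extreme had to widen the difference. Without both Control 4 and ApoA-I 4 the change was 0.58 as well. With all 16 libraries but no TMM scaling it was smaller and not called, at 0.064 from library totals and 0.099 on log2(TPM + 1).

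**Figure D4:**
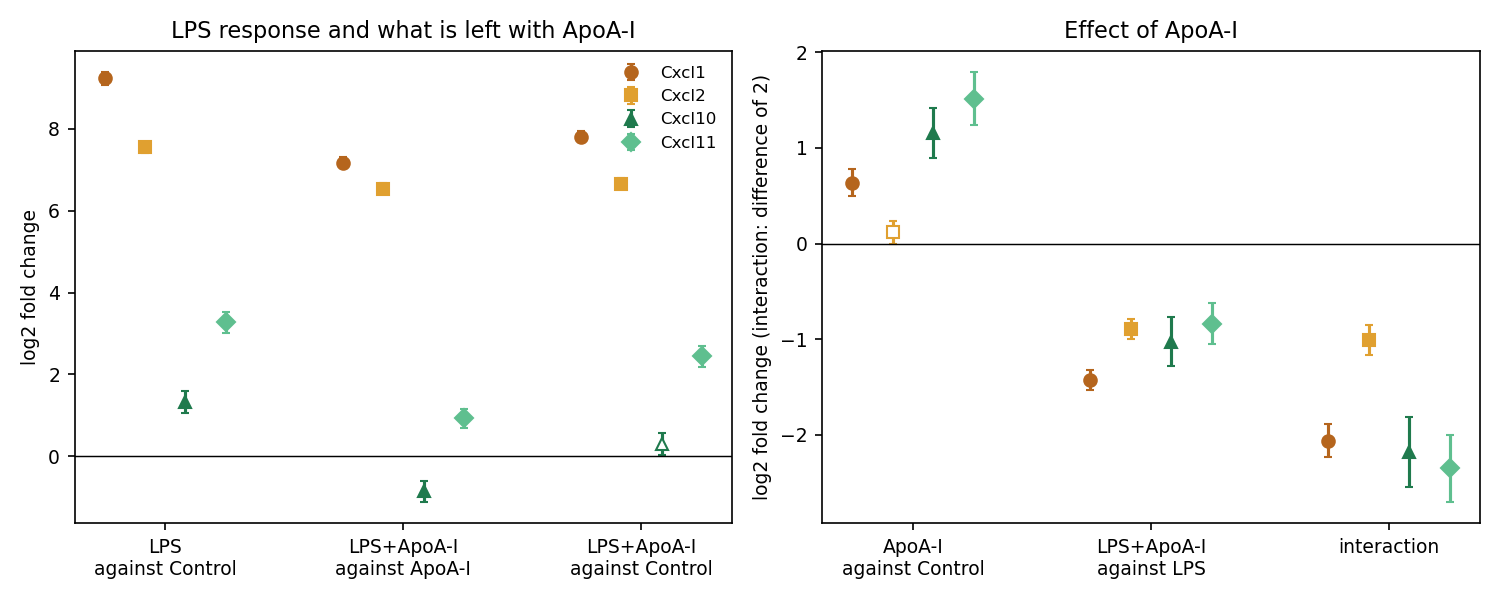
Log2 fold change of the 4 chemokines in each comparison, with SE bars from edgeR; filled points have an adjusted p under 0.05, and the 2 panels have different axes. The left panel separates Cxcl1 and Cxcl2, between 6.54 and 9.24, from Cxcl10 and Cxcl11, between -0.86 and 3.28, and the right panel shows decreases of all 4 genes in LPS+ApoA-I against LPS.

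The order of the 4 groups thus differed between genes. For Cxcl1 and Cxcl2 it was Control, ApoA-I, LPS+ApoA-I and LPS from lowest to highest mean CPM, with the libraries of Control and ApoA-I overlapping and the other neighbours apart. Cxcl11 had the same order, at 1.801 ± 0.859, 5.13 ± 1.73, 9.74 ± 1.67 and 17.4 ± 2.71 CPM (SD, n = 4 each), again with overlap in CPM only between Control and ApoA-I. By TPM its ApoA-I and LPS+ApoA-I libraries overlapped as well. Cxcl10 had the order Control, LPS+ApoA-I, ApoA-I and LPS, at 124 ± 52.9, 152 ± 9.85, 275 ± 111 and 309 ± 32.3 CPM (SD, n = 4 each), and every pair of neighbours overlapped. In TPM, which was not TMM-scaled, Cxcl10 was higher in ApoA-I (543 ± 226) than in LPS libraries (429 ± 30.9; SD, n = 4 each), so the order of these 2 groups depends on the scaling. Control and LPS+ApoA-I libraries had nearly the same mean TPM of Cxcl10, at 231.54 ± 97.2 and 231.65 ± 14.6 (SD, n = 4 each). Their order in CPM therefore depends on the scaling too.

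Likeness of pattern was described by Pearson's r of log2 CPM over the 16 libraries, which share the split between libraries with and without LPS. Of 11901 other genes, Cxcl2 was at place 5 in likeness to Cxcl1 (r = 0.998), and Cxcl1 at place 11 in likeness to Cxcl2. Cxcl11 was at place 101 in likeness to Cxcl10 (r = 0.702), but Cxcl10 was at place 2800 in likeness to Cxcl11, for which Cxcl1 came earlier, at place 576 (r = 0.878). Cxcl10 and Cxcl1 had r = 0.338. The gene most like Cxcl1 was ENSRNOG00000049361 (r = 0.999), with 172 ± 6.94 CPM in the Control group, 193 ± 10.2 with ApoA-I, 957 ± 35.3 with LPS and 743 ± 18.5 with both (SD, n = 4 each). The gene most like Cxcl10 was ENSRNOG00000007539 (r = 0.963), with 54.1 ± 24.3, 107 ± 44.6, 149.9 ± 10.7 and 63.3 ± 4.78 CPM in the same order (SD, n = 4 each), so it too had lower levels in LPS+ApoA-I than in ApoA-I libraries on average. The files give these 2 genes by identifier only.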

How the data were processed

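The authors deposited gene tables of estimated counts (RSEM's expected counts) and of TPM. Tools named in the submitters' processing notes, with neither role nor order, are cutadapt 1.8.1, STAR 2.7.10b and RSEM 1.3.1; the build named is mouse mm10, although the identifiers are rat. The rat annotation was not given in the sources used here; its bearing on single genes was not tested. Of the 64 count values of the 4 chemokines, 0 were not whole (tolerance 0.005), against 3.24% of all values.

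Expected counts were rounded, genes were kept by filterByExpr (minimum count 10), and all 16 libraries were fitted with group means, TMM scaling and edgeR 4.0.16's quasi-likelihood test (R 4.3.3; 12 residual degrees of freedom). Adjusted p is Benjamini-Hochberg's over the 11902 genes, called under 0.05. SE was derived as |log2 fold change| / sqrt(F). Within-library log2 ratios of counts (0.5 added to each) were tested by exact two-sided permutation (70 arrangements; scipy 1.17.1), adjusted over 24 tests. Alternatives were library totals, DESeq2 1.42.0, limma 3.58.1 on log2(TPM + 1) and log2(TPM + 0.1), 2 other filters, the compared groups alone, a replicate block and each library left out. Leaving out Control 4 and ApoA-I 4 together, and other scalings of the retained share of the LPS response, were added after the data were seen. Promoter sequences are RefSeq's (GRCr8), matched by symbol for 4 of 4 genes. The genes, lists and tests were chosen with earlier results of these data known. Named genes were the 4 chemokines and the identifier most correlated with Cxcl1 and with Cxcl10. Lists of other CXC pathway genes and cell type markers, given by symbol, were not analysed here because no identifier could be looked up. The edgeR step and the exact test were tested on simulated data. Counts of each of 24 replicate pairs differed beyond sampling noise (chi-square over degrees of freedom from 3.10 to 92.3), so each library was counted once.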

Additional observations from a re-analysis of the deposited data

Results flagged for a closer look

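Cxcl11 in Control 4, at 3.07 CPM, lay far from the other 3 Control libraries, which were between 1.21 and 1.53 CPM. Of 16 groups of 4 libraries examined (4 genes in 4 groups), this was 1 that stood out, and chance alone is expected to mark about 1 in 20. The same library was also the highest of its group for Cxcl10, at 189.8 CPM.

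By the interaction test of edgeR, all 4 genes responded to ApoA-I differently when LPS was present: by -2.06 log2 units for Cxcl1, -1.01 for Cxcl2, -2.18 for Cxcl10 and -2.35 for Cxcl11. A negative call was made for 20.2% of all tested genes. The adjusted p stayed under the threshold for each of the 4 genes under all 24 alternatives run, the highest being 0.00119 (Cxcl10). Among the 24 is the setting without Control 4 and ApoA-I 4, whose adjusted p is not a valid test.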

How the results depend on the processing

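Over the 596 alternative values of the 4 genes no direction was reversed and 12 changed their side of the threshold. These include the setting without Control 4 and ApoA-I 4, whose adjusted p is not a valid test. In ApoA-I against Control, over the compared groups alone, Cxcl1 (0.63), Cxcl10 (1.15) and Cxcl11 (1.51) were no longer called, and on log2(TPM + 0.1) Cxcl10 (1.19, limma adjusted p = 0.0537) was not; leaving out libraries gave 0.51 to 0.77 for Cxcl1 and 0.96 to 1.44 for Cxcl10, or 1.70 without Control 4 and ApoA-I 4 together. On log2(TPM + 0.1), Cxcl11 in LPS+ApoA-I against ApoA-I was 0.62 (limma adjusted p = 0.0526). Cxcl10 in LPS+ApoA-I against Control ran from 0.10 to 0.58 with libraries left out. It was called at 0.58 without Control 4, its highest Control library. Without Control 4 and ApoA-I 4 together it was 0.58 too, where an adjusted p is not a valid test. From library totals it was 0.064 and on log2(TPM + 1) 0.099, without a call. Of 270 alternative ratios, 3 changed sign, all for Cxcl11 to Cxcl2 in LPS+ApoA-I against LPS, which ran from -0.067 to 0.16 with 1 library left out (-0.022 without LPS+ApoA-I 3, -0.015 without LPS 4). Cxcl11 to Cxcl10 in ApoA-I against Control was 0.38 as a TPM ratio and no longer passed. The cause was not tested.

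Genes called in ApoA-I against Control numbered 508, but 806 with DESeq2, 310 on log2(TPM + 1), 238 on log2(TPM + 0.1), 94 over the compared groups alone, 186 (without ApoA-I 1) to 775 (without Control 4) with 1 library left out, and 990 without Control 4 and ApoA-I 4; without Control 1, 2 or 3 they numbered 284, 325 and 202. The share of called genes that were higher changed with scaling. With TMM, then library totals, then log2(TPM + 1), it was 48.6%, 25.5% and 23.6% in LPS against Control, 58.5%, 83.1% and 81.6% for ApoA-I against Control, 51.4%, 71.8% and 69.9% in LPS+ApoA-I against LPS, 49.8%, 26.7% and 22.4% in LPS+ApoA-I against ApoA-I, 49.4%, 31.2% and 27.7% in LPS+ApoA-I against Control, and 50.7%, 65.1% and 60.4% for the interaction.

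Deviations of same-numbered libraries of different groups were weakly correlated (r from -0.18 to 0.18, over 0.1 in 3 of 24 pairs). Of 16 libraries, 5 correlated best with their own number. These values cannot settle whether same-numbered libraries share a culture or batch. With the replicate block, no call of the 4 genes changed (Cxcl1 in LPS+ApoA-I against LPS: -1.44), and 469 genes were called in ApoA-I against Control. Counts were fewest for Cxcl11, with 22 to 49 in each Control library.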
